A study of Mus musculus with 8 samples.

Results

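A set of 10 genes of fibroblast growth factor (FGF) signaling was followed in embryonic mouse brains from mothers on a choline-deficient or a normal diet. They are the ligands *Fgf8*, *Fgf15*, *Fgf17* and *Fgf18*, the receptors *Fgfr1*, *Fgfr2* and *Fgfr3*, and the feedback and target genes *Spry1*, *Spry2* and *Etv5*. They were chosen by name, with earlier results of these data known, and all 10 were found among the 33971 genes of the count table. All 10 passed the filter on low counts that left 19367 genes for the test.

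Both groups consisted of wild-type (WT) embryos from matings of WT parents, and neither carried an engineered allele. Whole brains were taken at E14.5 from embryos of dams that were given a choline-deficient diet (CDD, n = 4 brains) or a normal chow diet (ND, n = 4 brains) from the mating day on, and poly-A-selected RNA was sequenced in bulk. The labels do not say how many dams or litters the brains came from, so that the p-values given here measure the spread between these brains, which may include littermates.

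FGF ligands leave the cell, bind heparan sulfate on the cell surface and matrix, and activate receptor tyrosine kinases. The signal runs through adaptor proteins, Ras and the MAP kinase cascade, and it switches on ETS transcription factors such as *Etv5* and inhibitors of the same cascade, among them the Sprouty genes. In the embryonic brain, *Fgf8*, *Fgf17* and *Fgf18* are known from the signaling centers at the front of the telencephalon and at the midbrain-hindbrain boundary, and the receptors from the progenitors of the ventricular zone.

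*Fgf17* rose in CDD brains by 0.60 on the log2 scale (standard error, SE, 0.18, edgeR adjusted p = 0.0399 over all genes), and it was the only one of the 10 genes past the threshold of 0.05. Over all genes tested, 8.83% passed the same threshold in either direction with 4.24% higher and 4.59% lower in CDD, so that 1 of 10 was close to the background. An unadjusted p-value under 0.05 was reached by 5 of the 10 genes (*Fgf15*, *Fgf17*, *Fgfr2*, *Fgfr3* and *Etv5*), against 23.9% of all genes tested. The diets did not overlap for 3 of the 10, namely *Fgf15* and *Fgf17* with all CDD brains above and *Etv5* with all CDD brains below, against 15.0% of all genes. The log2 fold change was above 0 for 6 genes and below 0 for 4, with a median of 0.05, whereas the median of all genes tested was -0.0038. In bulk RNA, fewer cells of a type and less RNA per cell cannot be told apart.

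**Figure D1:**
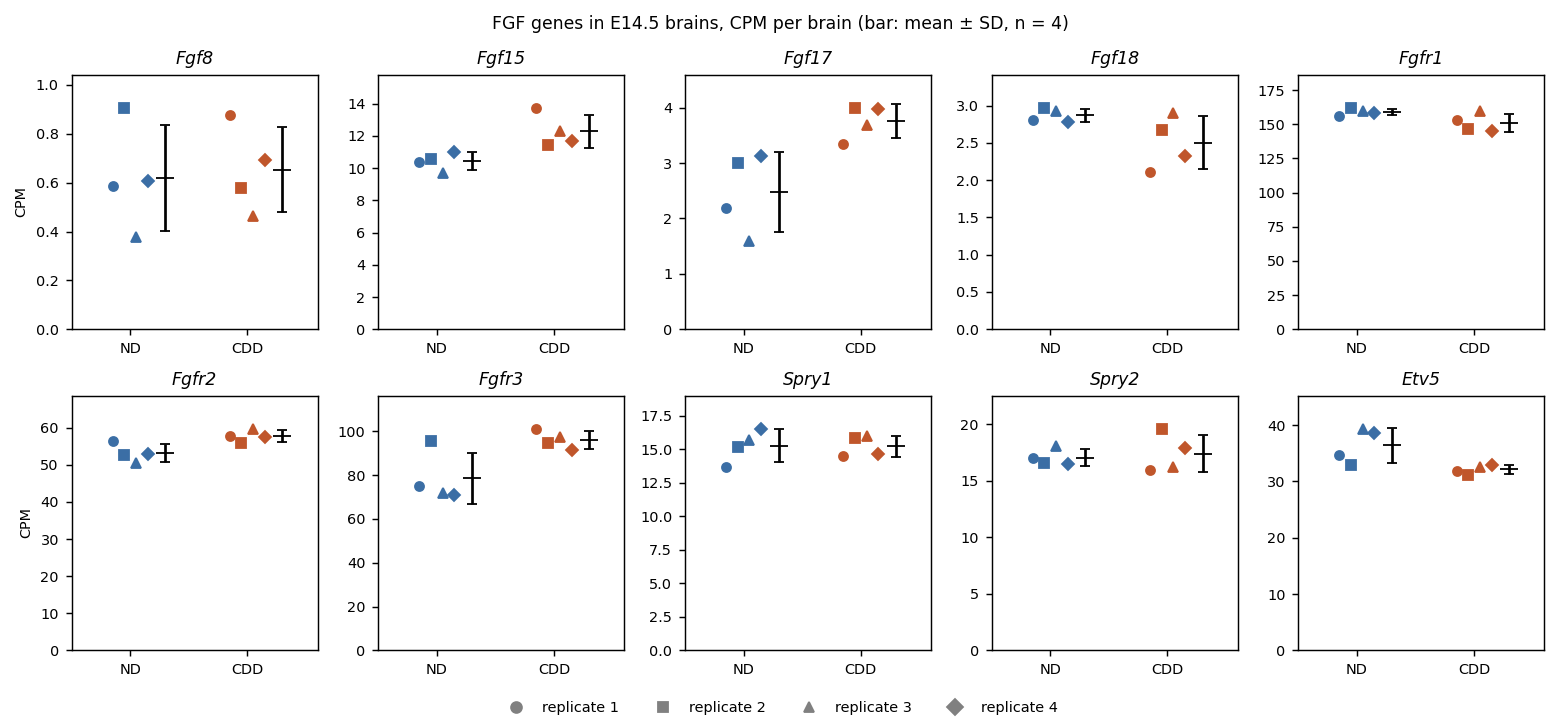
CPM (the count relative to the TMM-scaled library total) of each of the 10 genes in each brain, by maternal diet, with a panel for each gene, a linear axis from 0, and mean ± SD over 4 brains beside the points. The CDD brains lie above every ND brain for *Fgf15* and *Fgf17* and below every ND brain for *Etv5*, and ND replicate 2 lies among the CDD brains for *Fgfr3*.

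The labelled tissue was checked against marker genes. Summed over 8 markers each, neuronal genes stood at 6248 to 7071 CPM and radial glia genes at 1399 to 1696 CPM in the 8 brains. Hox genes of hindbrain and spinal cord were near 0 in 7 brains (0 to 2.23 CPM summed over 8 genes) but at 97.3 CPM in CDD replicate 2, so that results are also given without this brain where they rest on it. Total counts were between 31770217 and 43121170 per brain, and all pairs of brains from 1 diet differed by more than sampling noise (chi-square per degree of freedom of at least 3.53). This measure was 3.53 to 6.92 between ND brains and 5.52 to 20.2 between CDD brains. Between CDD replicate 4 and the ND brains it was 19.2 to 27.5. CDD replicate 3 was closer to ND replicate 2 (3.77) than to any other CDD brain.

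Promoter sequences from RefSeq (GRCm38.p6) cover 250 bases before and 50 bases after a gene's start, and 6 of the 10 genes have such a window. *Fgf8*, *Fgf15*, *Fgf17* and *Fgfr1* have none in the table used. The windows shown are those of *Fgfr3* and *Etv5*, which had the smallest p-values among the receptors and among the feedback genes, and that of *Spry2*, the only one of the 8 windows of these genes with the ETS core CCGGAA. *Fgfr3* and *Etv5* have 2 windows each, and for each gene the one with more GC box cores is shown. Capitals mark the ETS core or the GC box core GGGCGG on either strand, so that the GC box core of the other strand reads CCGCCC. The windows lie at chr5:33721474-33721773 (plus strand) for *Fgfr3*, chr16:22439521-22439820 (minus strand) for *Etv5* and chr14:105896770-105897069 (minus strand) for *Spry2*. These positions lie outside the spans that the authors list for the genes, given below. The build of that listing is not named, so that positions of windows and of genes cannot be compared.
Fgfr3: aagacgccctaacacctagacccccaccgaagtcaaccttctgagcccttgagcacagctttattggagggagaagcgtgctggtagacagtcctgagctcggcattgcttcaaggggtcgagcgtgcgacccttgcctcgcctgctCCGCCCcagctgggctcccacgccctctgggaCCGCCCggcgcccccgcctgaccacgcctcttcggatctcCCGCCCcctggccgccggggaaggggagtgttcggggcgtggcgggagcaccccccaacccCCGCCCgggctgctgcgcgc
Etv5: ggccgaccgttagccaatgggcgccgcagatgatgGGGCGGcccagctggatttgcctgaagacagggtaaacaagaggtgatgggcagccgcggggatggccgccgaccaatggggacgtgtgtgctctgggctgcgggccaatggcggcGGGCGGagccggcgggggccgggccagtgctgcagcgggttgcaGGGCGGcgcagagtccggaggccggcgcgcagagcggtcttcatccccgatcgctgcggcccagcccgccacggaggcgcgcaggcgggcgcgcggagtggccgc
Spry2: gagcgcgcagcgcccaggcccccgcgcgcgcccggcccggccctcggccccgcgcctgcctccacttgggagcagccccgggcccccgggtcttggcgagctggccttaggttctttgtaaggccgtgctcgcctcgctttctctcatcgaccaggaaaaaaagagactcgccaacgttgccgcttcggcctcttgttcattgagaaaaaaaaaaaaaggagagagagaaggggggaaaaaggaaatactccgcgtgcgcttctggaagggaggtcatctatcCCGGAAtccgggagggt
The *Fgfr3* window shown holds 4 GC box cores and the *Etv5* window shown 3, and they do not overlap one another there. The windows not shown hold 2 cores for *Fgfr3* and 0 for *Etv5*. Of all 32851 windows in the table, 35.7% hold a GC box core and 14.9% an ETS core. The AP-1 motif TGANTCA (in 7.81% of all windows) and the CRE motif TGACGTCA (in 1.79%) were searched for on both strands and are in none of the 8 windows. A match is a description of these letters and was not tested as a binding site.

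The ligands were the lowest expressed of the 10 genes per gene length. *Fgf17* (ENSMUSG00000022101, chromosome 14, 70873643 to 70879708 in the authors' listing, whose build is not named), a close relative of *Fgf8* with a role in patterning the midbrain, cerebellum and frontal cortex, was counted with 55 to 159 reads per brain. It stood at 3.35, 4.00, 3.69 and 3.98 CPM in CDD replicates 1 to 4 and at 2.19, 3.00, 1.59 and 3.13 CPM in ND replicates 1 to 4. The lowest CDD brain was thus just above the highest ND brain, and the ND brains were the more variable, with ND replicate 3 the lowest and ND replicates 2 and 4 near the CDD values. CDD brains averaged 3.76 ± 0.304 CPM (SD, n = 4), which is 51.7% above the 2.48 ± 0.723 CPM (SD, n = 4) of ND brains. The spread between ND brains, a coefficient of variation of 29.2%, exceeded the 10.9% that counting alone gives, whereas the 8.10% between CDD brains was below the counting error of 8.61%.

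The call for *Fgf17* was lost without CDD replicate 1 (edgeR adjusted p = 0.0519), CDD replicate 2 (0.0827), CDD replicate 4 (0.0656), ND replicate 1 (0.124) or ND replicate 3 (0.148), with log2 fold changes of 0.44 to 0.74 over the 8 fits that leave out 1 brain each. Without CDD replicate 2 and ND replicate 3 together, it was 0.41 (adjusted p = 0.238). Of 8 marker genes of the midbrain-hindbrain boundary, 0 passed an adjusted p of 0.05 with edgeR or limma-voom, and 1 passed with DESeq2. An edgeR unadjusted p under 0.05 was reached by 2, against 23.9% of all genes tested. The median log2 fold change of the 8 markers was 0.24, with values from -0.14 to 1.14, of which 5 were above 0 and 3 below. Their summed level was 124 to 162 CPM in CDD and 120 to 138 CPM in ND brains, with CDD replicate 2, which also had the highest *Fgf17* level and the Hox counts, as the highest and CDD replicate 1 next at 149 CPM. The part of this region in the *Fgf17* difference was not tested. Among these markers, *Pax5* had the smallest p, with a log2 fold change of 0.42 (edgeR adjusted p = 0.119). It stood at 29.0, 26.9, 30.7 and 42.7 CPM in CDD and at 22.6, 27.5, 22.4 and 24.3 CPM in ND brains. CDD replicate 4 was the highest, and the diets overlapped, with CDD replicate 2 below ND replicate 2.

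*Fgf15* (ENSMUSG00000031073, chromosome 7, 144450268 to 144454690 as listed) encodes the mouse counterpart of human FGF19 and is made by neural progenitors. It stood at 13.7, 11.4, 12.3 and 11.7 CPM in the CDD brains and at 10.4, 10.6, 9.69 and 11.0 CPM in the ND brains, in replicate order. CDD replicate 1 was the highest of all 8 brains, and the other CDD brains lay close above the ND range. On average, 12.3 ± 1.03 CPM (SD, n = 4) were measured in CDD against 10.4 ± 0.553 CPM (SD, n = 4) in ND, or 0.24 on the log2 scale (SE 0.08, edgeR adjusted p = 0.0757), which did not pass the threshold. Without CDD replicate 1, the log2 fold change was 0.19.

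*Fgf18* (ENSMUSG00000057967, chromosome 11, 33067430 to 33097400 as listed), of the same subfamily as *Fgf8* and *Fgf17*, had its values on the other side. The CDD brains stood at 2.11, 2.67, 2.90 and 2.32 CPM and the ND brains at 2.81, 2.97, 2.92 and 2.78 CPM. The ND brains were close together, and CDD replicate 3 lay within their range. On the log2 scale, the change was -0.19 (SE 0.14, 95% interval -0.47 to 0.09, adjusted p = 0.452), and it was -0.12 without CDD replicate 1.

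*Fgf8* (ENSMUSG00000025219, chromosome 19, 45725237 to 45731354 as listed), the organizer ligand of the midbrain-hindbrain boundary and of the rostral forebrain, was counted with only 13 to 29 reads per brain. It stood at 0.875, 0.580, 0.465 and 0.694 CPM in CDD and at 0.585, 0.907, 0.376 and 0.609 CPM in ND brains. The diets covered the same range. Counting alone gives a coefficient of variation of about 20.9% in CDD and 22.0% in ND. The 95% interval of the log2 fold change was -0.53 to 0.67, so that a rise of the size measured for *Fgf17* lies within it.

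Taken per gene length, the 4 ligands together stood at 8.90, 8.79, 9.00 and 8.64 FPKM in CDD and at 7.49, 8.41, 6.85 and 8.25 FPKM in ND brains. All CDD sums lay above all ND sums, as did the CDD values of *Fgf15* and of *Fgf17* taken alone, whereas *Fgf8* and *Fgf18* overlapped. *Fgf17* made up 25.2 ± 2.36% (SD, n = 4) of this sum in CDD brains, against 18.7 ± 3.94% (SD, n = 4) for ND, and *Fgf18* made up 23.8 ± 3.19% against 31.4 ± 3.27%. The share of *Fgf18* did not overlap between the diets (20.0 to 27.2% against 28.4 to 35.9%), whereas that of *Fgf17* did through CDD replicate 1 at 22.3% and ND replicate 4 at 22.5%. *Fgf15* held 45.5% and 44.1% of the sum, and *Fgf8* 5.48% and 5.83%. These shares are parts of one sum and are given as a description with no test, and a higher *Fgf15* and *Fgf17* by themselves lower the share of *Fgf18*.

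Among the receptors, *Fgfr3* (ENSMUSG00000054252, chromosome 5, 33879018 to 33894412 as listed) had the smallest p-value. It encodes a receptor tyrosine kinase of ventricular zone progenitors and is graded along the rostrocaudal axis of the cortex. It stood at 101, 94.4, 97.2 and 91.6 CPM in the CDD brains and at 75.1, 95.8, 71.8 and 71.0 CPM in the ND brains. ND replicates 1, 3 and 4 lay well below all CDD brains, and ND replicate 2 lay among the CDD brains. CDD brains averaged 96.1 ± 4.03 CPM (SD, n = 4), which is 22.6% above the 78.4 ± 11.7 CPM (SD, n = 4) of ND brains.

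The log2 fold change of *Fgfr3* was 0.29 (SE 0.09, edgeR adjusted p = 0.061), just outside the threshold. Without ND replicate 2 it was 0.40 (adjusted p = 5.92e-04), and it did not pass in any of the other fits that leave out 1 brain. DESeq2 (adjusted p = 0.0053) and limma-voom (0.0333) placed it past the threshold at nearly the same fold change (0.30 in both). The gene overlaps *G630022F23Rik* on the other strand in the listing, at 2.70 CPM in CDD and 2.39 CPM in ND. Since the strand setting of the counting is not given, reads of the overlap could belong to either gene. The same holds for *Fgf15* (2 overlapping genes), *Fgfr1* and *Spry1* (1 each).

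Markers of radial glia, the progenitors that line the ventricle, were compared beside *Fgfr3*. Of 8 such markers, 3 rose in CDD brains (*Nes*, *Pax6* and *Vim*) and 0 fell, against 4.24% of all genes higher and 4.59% lower, with a median log2 fold change of 0.21. Their sum was 1615, 1696, 1536 and 1683 CPM in CDD and 1442, 1477, 1422 and 1399 CPM in ND brains, with no overlap and with ND replicate 2 the highest of its group. *Nes*, which encodes the intermediate filament nestin, changed by 0.47 on the log2 scale (edgeR adjusted p = 0.00344). The part of these cells in the *Fgfr3* difference was not tested.

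*Fgfr1* (ENSMUSG00000031565, chromosome 8, 26003670 to 26065734 as listed), a receptor tyrosine kinase expressed widely in the developing brain, had the highest level per gene length of the 10 genes. It stood at 152.8, 146.6, 159.5 and 144.7 CPM in CDD and at 156.3, 162.0, 159.3 and 157.9 CPM in ND brains. CDD replicates 1, 2 and 4 lay below every ND brain and CDD replicate 3 within the ND range. Its change on the log2 scale was -0.07 (SE 0.04, 95% interval -0.16 to 0.0075, adjusted p = 0.295).

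*Fgfr2* (ENSMUSG00000030849), a receptor of progenitors and glia, stood at 57.8, 55.9, 59.7 and 57.5 CPM in CDD and at 56.5, 52.5, 50.6 and 53.0 CPM in ND brains. The CDD brains were the higher ones except that ND replicate 1 exceeded CDD replicate 2. On the log2 scale, the change was 0.12 (SE 0.05, adjusted p = 0.133). Its counts are uncertain: the listing gives it a span of 2960899 bases on chromosome 7, from 129764181 to 132725079, which overlaps 57 other genes, 29 of them on the same strand.

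Per gene length, *Fgfr1* made up 44.0, 44.4, 45.5 and 44.4% of the summed FPKM of the 3 receptors in CDD brains and 49.8, 47.1, 51.9 and 51.5% in ND brains. All CDD brains had the smaller share. *Fgfr3* made up 39.1 ± 0.824% (SD, n = 4) of the sum in CDD brains, against 33.9 ± 3.00% (SD, n = 4) for ND, and ND replicate 2 at 38.4% lay within the CDD range of 38.2 to 40.1%. *Fgfr2*, whose counts are uncertain, held 16.3% and 16.0%. These shares are parts of one sum and were not tested, and a higher *Fgfr3* by itself lowers the share of *Fgfr1*. The summed level averaged 34.3 ± 1.24 FPKM (SD, n = 4) for CDD, against 32.2 ± 1.82 FPKM (SD, n = 4) for ND, and the brains of the diets overlapped.

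**Figure D2:**
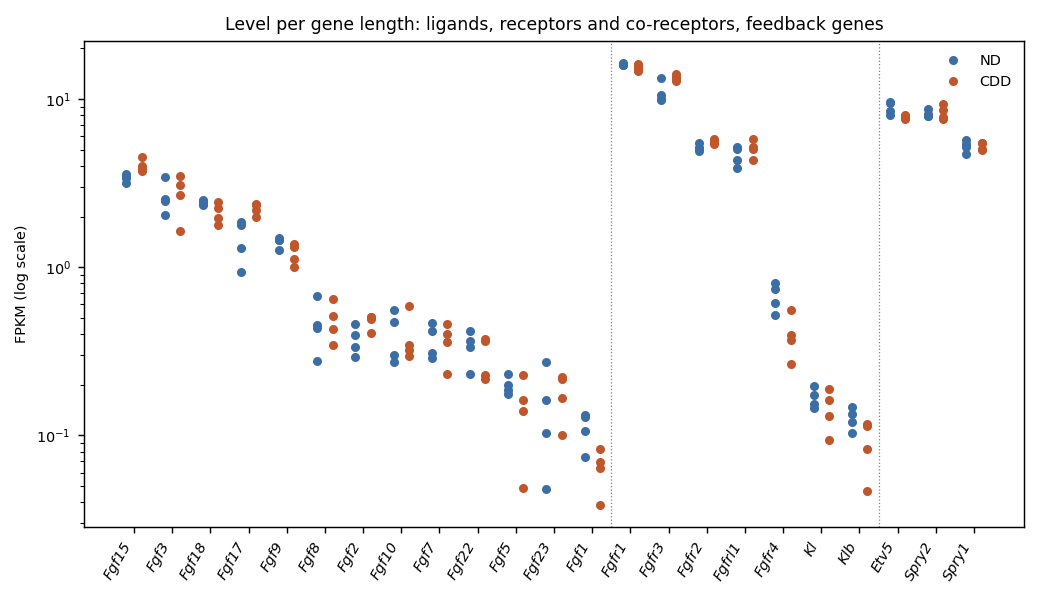
FPKM (log axis) in each brain for secreted ligands, receptors and co-receptors, and the 3 feedback genes, each set sorted by its mean and colored by maternal diet. *Fgfr1* and *Fgfr3* lie above every other gene drawn, *Fgf15* leads the ligands, and *Fgf8* lies below 1 FPKM.

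Of the feedback genes, *Etv5* (ENSMUSG00000013089, chromosome 16, 22200059 to 22258469 as listed), an ETS transcription factor that is a target of FGF signaling, had the smallest p-value. It stood at 31.9, 31.2, 32.5 and 32.9 CPM in the CDD brains and at 34.7, 33.0, 39.4 and 38.6 CPM in the ND brains. The CDD brains were close together below all ND brains, with CDD replicate 4 and ND replicate 2 nearly equal. The average of 32.1 ± 0.727 CPM (SD, n = 4) in CDD compared with 36.4 ± 3.05 CPM (SD, n = 4) for ND, or -0.18 on the log2 scale (SE 0.06, edgeR adjusted p = 0.0748), which did not pass. Without ND replicate 2 it was -0.22 and passed (adjusted p = 0.0416), and without ND replicate 3 it was -0.14 (adjusted p = 0.288).

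Markers of oligodendrocyte precursors were compared beside *Etv5*. Of 6 such markers, 2 fell in CDD brains (*Olig1* and *Pdgfra*) and 0 rose, against 4.59% of all genes lower and 4.24% higher, with a median of -0.28 on the log2 scale. Their sum was 99.3 to 113 CPM in CDD and 120.5 to 138 CPM in ND. The radial glia markers went the other way from *Etv5*, with 3 of 8 higher in CDD and a median of 0.21. The part of either cell type in the *Etv5* values was not tested.

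*Spry1* and *Spry2* encode Sprouty proteins, which dampen receptor tyrosine kinase signaling. *Spry1* (ENSMUSG00000037211, chromosome 3, 37694096 to 37698747 as listed) stood at 14.49, 15.9, 16.0 and 14.6 CPM in CDD and at 13.7, 15.2, 15.7 and 16.5 CPM in ND brains. *Spry2* (ENSMUSG00000022114, chromosome 14, 106129381 to 106134253 as listed) stood at 16.0, 19.6, 16.2 and 17.9 CPM in CDD and at 17.0, 16.6, 18.1 and 16.4 CPM in ND brains. The diets overlapped for both, and the highest *Spry2* value was that of CDD replicate 2. The 95% interval of the log2 fold change was -0.15 to 0.15 for *Spry1* and -0.12 to 0.18 for *Spry2*, so that a change of the size of *Fgf17* or *Fgfr3* lies outside both intervals, with edgeR adjusted p-values of 0.992 and 0.853.

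An exact two-sided permutation test of the mean CPM over the 70 divisions of the 8 brains gave p = 0.0286, the smallest value this design allows, for *Fgf15*, *Fgf17* and *Etv5*. It gave p = 0.0571 for *Fgfr2* and p = 0.0857 for both *Fgf18* and *Fgfr3* in the same exact test. For the remaining 4 genes, the exact p was between 0.114 and 1. Any gene whose diets do not overlap reaches the p of 0.0286 in this test, and 15.0% of all genes tested had no overlap. The 10 exact tests are given without adjustment.

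**Figure D3:**
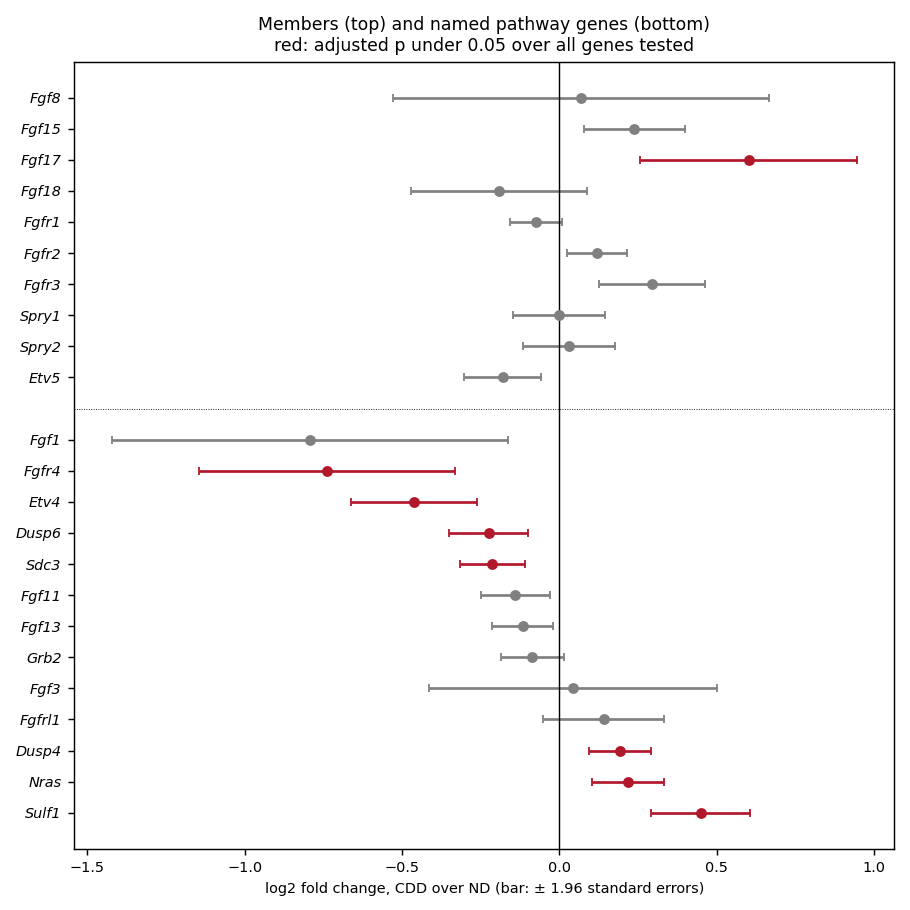
Log2 fold change of CDD over ND with a 95% interval for the 10 genes at the top and for other named FGF pathway genes below, red where the adjusted p is under 0.05. *Fgf17* is the only red point of the upper group at 0.60, and the lower group holds 3 red points above 0 and 4 below.

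Ordered by level per gene length, the mean was 15.7 FPKM for *Fgfr1*, 12.2 for *Fgfr3*, 8.35 for *Etv5*, 8.25 for *Spry2*, 5.37 for *Fgfr2*, 5.25 for *Spry1*, 3.71 for *Fgf15*, 2.26 for *Fgf18*, 1.85 for *Fgf17* and 0.471 for *Fgf8*. Neighbors in this order had separate ranges over the 8 brains except for *Etv5* and *Spry2*, *Fgfr2* and *Spry1*, and *Fgf18* and *Fgf17*. In 3 of the 8 brains, *Fgf17* was above *Fgf18*.

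Other genes of the pathway were taken from lists of secreted ligands, intracellular FGF homologous factors, receptors and co-receptors, heparan sulfate genes, signal relay, and feedback and target genes. Of the 73 genes listed beside the 10, 70 were found and 67 were tested, and 7 of them passed the threshold, 3 higher and 4 lower in CDD brains, against 8.83% of all genes. Their median log2 fold change was 0.02, and the diets did not overlap for 10 of the 67, against 15.0% of all genes.

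Among these feedback and target genes, 12 were tested, and *Etv4* and *Dusp6* fell while *Dusp4* rose. Over all genes tested, 4.24% were higher and 4.59% lower. *Etv4*, a close relative of *Etv5*, stood at 5.89, 7.07, 6.71 and 5.64 CPM in CDD and at 9.16, 7.66, 9.43 and 8.67 CPM in ND brains. All CDD brains lay below all ND brains, as for *Etv5*, and the log2 fold change was -0.46 (SE 0.10, edgeR adjusted p = 0.00967). The call was lost without ND replicate 3 (-0.42, adjusted p = 0.0544).

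*Dusp6*, which encodes a phosphatase of the MAP kinase ERK, stood at 22.6, 21.1, 24.3 and 21.4 CPM in CDD and at 26.4, 24.3, 27.0 and 26.9 CPM in ND brains. The diets touched at CDD replicate 3 and ND replicate 2. Its log2 fold change was -0.23 (SE 0.06, adjusted p = 0.0356), and the call held without CDD replicate 3 (0.0122) and without ND replicate 2 (0.0294), and was lost without each of the other 6 brains (adjusted p of 0.0525 to 0.135).

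*Dusp4*, which encodes a nuclear phosphatase of MAP kinases, stood at 169, 189, 189 and 204 CPM in CDD and at 162, 171, 161 and 165 CPM in ND brains. ND replicate 2 exceeded CDD replicate 1, and the other CDD brains lay above all ND brains. The log2 fold change was 0.19 (SE 0.05, adjusted p = 0.0226), and the call was lost without CDD replicate 2 (0.0527), ND replicate 1 (0.0914), ND replicate 3 (0.11) or ND replicate 4 (0.0788). The Sprouty relative *Spry4* was at -0.12 (adjusted p = 0.528) and *Etv1*, the other member of the *Etv4* and *Etv5* group, at 0.03 (adjusted p = 0.843).

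On the receptor side, *Fgfr4* fell and the other 3 genes of the list did not pass, against 4.59% of all genes tested lower. *Fgfr4*, the least expressed receptor kinase here, stood at 1.30, 1.39, 1.97 and 0.935 CPM in CDD and at 2.84, 1.84, 2.17 and 2.61 CPM in ND brains. CDD replicate 3 exceeded ND replicate 2, and the other CDD brains lay below the ND range. Its log2 fold change was -0.74 (SE 0.21, edgeR adjusted p = 0.0333), and the call held without CDD replicate 3 (0.00573) and without ND replicate 2 (0.026), and was lost without each of the other 6 brains (adjusted p of 0.0653 to 0.12). *Fgfrl1*, a receptor-like protein without a kinase domain, was at 0.14 (adjusted p = 0.419).

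Of 19 heparan sulfate genes, 1 rose and 1 fell, against 4.24% of all genes tested higher and 4.59% lower. *Sulf1*, which encodes an extracellular enzyme that removes sulfate groups from heparan sulfate, stood at 81.4, 92.4, 69.6 and 84.2 CPM in CDD and at 58.5, 67.1, 56.1 and 58.3 CPM in ND brains. All CDD brains lay above all ND brains. The log2 fold change was 0.45 (SE 0.08, adjusted p = 0.00633), and without CDD replicate 4 the call was lost (0.0659). *Sdc3*, a cell surface carrier of heparan sulfate in neurons, stood at 441, 491, 505 and 508 CPM in CDD and at 560.1, 544, 582 and 570.1 CPM in ND brains, again without overlap. It changed by -0.21 (SE 0.05, adjusted p = 0.0171), a call that was lost without CDD replicate 1 (0.0502), ND replicate 1 (0.072), ND replicate 3 (0.109) or ND replicate 4 (0.0613).

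Of 19 relay genes, *Nras*, a Ras GTPase, rose and 0 fell, against 4.24% of all genes tested higher and 4.59% lower. *Nras* stood at 162, 168, 155 and 196 CPM in CDD and at 146, 152, 143 and 146 CPM in ND brains. CDD replicate 4 was the highest, and the diets did not overlap. The log2 fold change was 0.22 (SE 0.06, adjusted p = 0.0289), and the call was lost without CDD replicate 2 (0.0587), ND replicate 1 (0.0925), ND replicate 3 (0.123) or ND replicate 4 (0.0855). Without CDD replicate 4 it was 0.14 (adjusted p = 0.0273). The adaptor *Grb2*, the highest expressed relay gene per gene length at 49.0 FPKM, was at -0.09 (adjusted p = 0.321).

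None of the 9 other secreted ligands tested passed the threshold with edgeR, DESeq2 or limma-voom. Of these 9 ligands, 2 had an edgeR unadjusted p under 0.05, against 23.9% of all genes tested. *Fgf3*, the highest of them per gene length at 2.67 FPKM, was at 0.04 (SE 0.23, adjusted p = 0.94), and *Fgf1*, which had their smallest p, was at -0.79 (SE 0.32, adjusted p = 0.133) with at most 0.725 CPM in any brain. *Fgf16*, *Fgf20* and *Fgf21* were found but had too few counts for the test, and *Fgf4*, *Fgf6* and *Spry3* were not analysed here. The 4 intracellular FGF homologous factors, which act on sodium channels inside neurons and not as secreted ligands, were all below 0 (-0.14 to -0.04). None of the 4 passed with any of these tools, and 2 had an edgeR unadjusted p under 0.05, against the same 23.9%. Of these, *Fgf11* was at -0.14 (adjusted p = 0.126) with no overlap between the diets, and *Fgf13*, the highest at 22.4 FPKM, at -0.12 (adjusted p = 0.155).

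**Figure D4:**
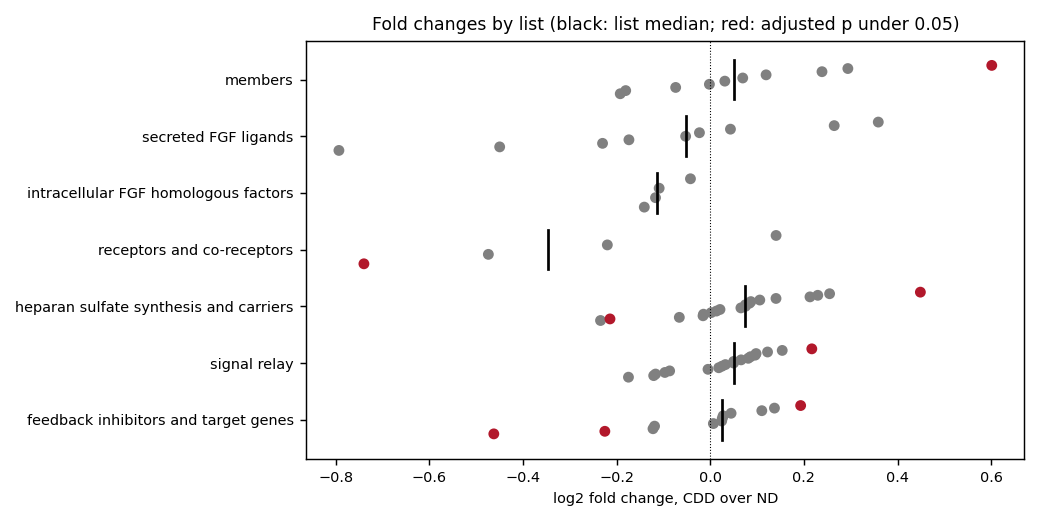
Log2 fold change of CDD over ND for each tested gene of the 10 members and of 6 lists of other FGF pathway genes, with the list median as a black bar and genes with an adjusted p under 0.05 in red. List medians lie between -0.35 (receptors and co-receptors, 4 genes) and 0.08 (heparan sulfate genes, 19 genes), and most points lie within 0.3 of 0.

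The genes whose profile over the 8 brains was most like that of *Fgf17*, by the root mean square difference of centered log2 CPM among 15887 genes, were *Gm38576* (0.152), *Il1r1* (0.180), which encodes a receptor of interleukin signaling, and *4930429H19Rik* (0.180). For *Fgfr3* they were *5730471H19Rik* (0.0568), the collagen gene *Col2a1* (0.0593) and *Gm11346* (0.0624). *Col2a1* had a mean of 116 CPM in CDD and 99.5 CPM in ND, a log2 fold change of 0.22 (edgeR adjusted p = 0.0313), and *5730471H19Rik* one of 0.28 (adjusted p = 0.0345). For *Etv5* they were *Adam12* (0.0307), a membrane metalloproteinase gene, *Mppe1* (0.0346) and *2410018L13Rik* (0.0411). These 8 brains are the same in which the diets were compared, so that likeness includes the shared diet difference.

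**Figure D5:**
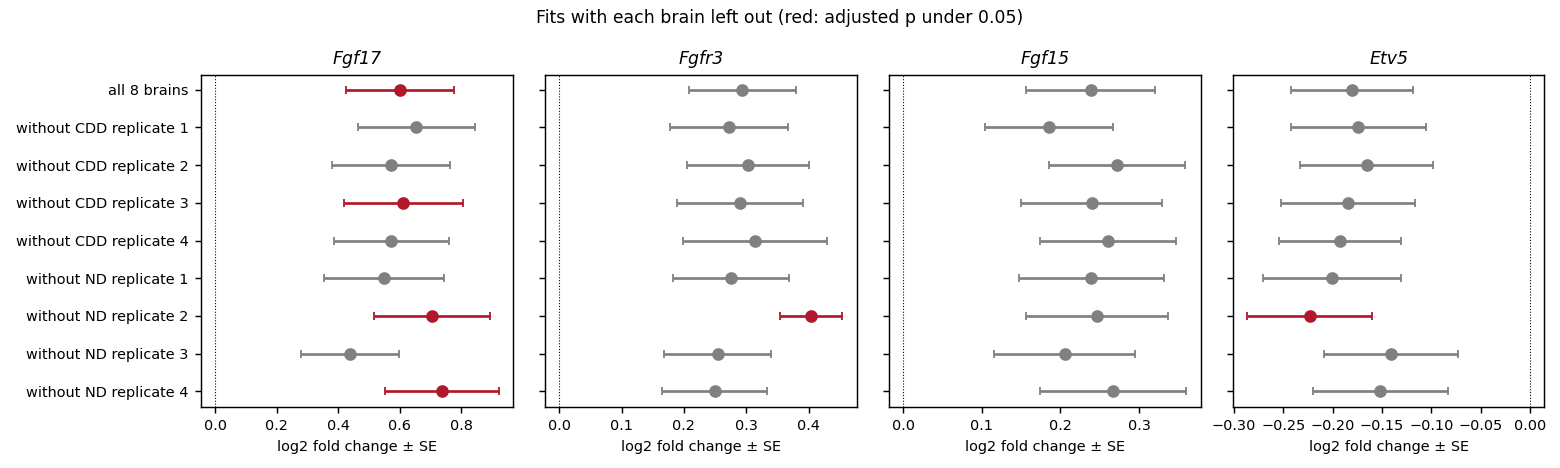
Log2 fold change (± SE) of *Fgf17*, *Fgfr3*, *Fgf15* and *Etv5* with all 8 brains and with each brain left out, red where the adjusted p is under 0.05. The sign stayed the same in every fit drawn, *Fgf17* was red in 3 of the 8 reduced fits, *Fgfr3* and *Etv5* were red only without ND replicate 2, and *Fgf15* was never red.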

How the data were processed

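Whole E14.5 WT brains from dams on CDD (n = 4) or ND (n = 4) were grouped by the maternal diet in their labels. For each gene, the authors deposited the raw counts of reads in every brain, its length and its position. Their normalized signal and FPKM columns, and the log2 fold change and p-value columns of their own comparison, were not used. The submitters' processing notes list HISAT2 2.0.5, featureCounts 1.5.0-p3 and DESeq2 1.20.0. The genome build and the strand setting are not given in the sources used here.

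From the deposited counts, genes were filtered by filterByExpr of edgeR 4.0.16 (19367 left), scaled by TMM and compared by the robust quasi-likelihood test on diet alone. The threshold was an adjusted p-value of 0.05 (Benjamini-Hochberg over all genes tested). CPM used TMM-scaled totals, and FPKM was CPM per kilobase of the listed gene length. Log2 fold changes are CDD over ND, and 95% intervals are normal intervals from the standard error (SE). The script was tested on simulated data. Total counts of 31770217 to 43121170 per brain cover counting error only, and the common biological coefficient of variation was 0.0814.

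The members, gene lists, markers and naming rule were chosen with earlier results of these data known. Named were the 10 members, the pathway genes past the threshold, the gene of each pathway list with the smallest p and that with the highest FPKM, the gene of each marker list with the smallest p, and the 3 genes (mean of at least 1 CPM) nearest in profile to the member with the smallest p of each role. *Pax6*, *Vim*, *Pdgfra*, *Spry4*, *Etv1* and *G630022F23Rik* were named after their values were seen.

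Alternatives were DESeq2 1.42.0, limma-voom (limma 3.58.1), RLE and upper-quartile scaling, a block for the replicate number, no filter, a minimum of 10 counts in every brain, leaving out 1 brain at a time, a threshold of 0.01 and, for the exact tests, counts over the library total. Leaving out CDD replicate 2 and ND replicate 3 together was added after the data were seen. Other software was matplotlib 3.10.9, SciPy 1.17.1, NumPy 2.4.6 and pandas 2.3.3 under Python 3.11.15, and R 4.3.3.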

Additional observations from a re-analysis of the deposited data

Results flagged for a closer look

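Dixon's test of the highest or lowest brain within a diet was run on 72 groups of 4 values (the members, the named genes and the list sums), of which chance would flag about 1 in 20, or 3.6, and it flagged 2. In the summed CPM of 8 diencephalon markers, ND replicate 2 was the highest of its diet at 438.2 CPM, with a gap to the next brain that was 0.883 of the whole range. ND replicate 2 was also the ND brain nearest to the CDD brains for *Fgfr3* and *Etv5*. In the summed CPM of 8 Hox genes of hindbrain and cord, CDD replicate 2 was the highest at 97.3 CPM, with a gap of 0.978 of the range. Without CDD replicate 2, *Fgf17* was at 0.57 on the log2 scale (edgeR adjusted p = 0.0827).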

How the results depend on the processing

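The number of members past the threshold was 1 in the reported fit (of 1710 genes in all) and 2 (*Fgf17* and *Fgfr3*) with DESeq2 (2151 genes in all), limma-voom (1629), at least 10 counts in every brain (1753) and no filter (2374). It was 0 at an adjusted p under 0.01 and 0 without CDD replicate 2 and ND replicate 3, and between 0 and 3 when 1 brain was left out, with 3 without ND replicate 2 (1452 genes in all) and 0 without CDD replicates 1, 2 or 4 or ND replicates 1 or 3. *Fgfr3* passed the threshold with DESeq2 (0.30), limma-voom (0.30), at least 10 counts (0.29) and no filter (0.29). It did not pass with RLE (0.30, edgeR adjusted p = 0.0513) or upper-quartile scaling (0.29, edgeR adjusted p = 0.06), where *Fgf17* was the only member called. The log2 fold change of *Fgfr3* was 0.25 to 0.40 with 1 brain left out. That of *Fgf17* was 0.44 to 0.74 with 1 brain left out and 0.41 without CDD replicate 2 and ND replicate 3, and that of *Etv5* was -0.22 to -0.14 and -0.13 in the same fits. Genes near 0 changed sign. *Fgf8* was at -0.06 without CDD replicate 2 and ND replicate 3 and between -0.11 and 0.31 with 1 brain left out. *Spry1* was at 0.0028 with DESeq2, 0.0011 with RLE and 0.0026 with limma-voom, and between -0.050 and 0.038 with 1 brain left out. *Spry2* was between -0.029 and 0.073 with 1 brain left out, and *Fgf3* between -0.093 and 0.23, and at -0.012 with limma-voom.

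The other counts depended on the brains and the threshold. At an adjusted p under 0.01, 477 genes passed, 2 of the pathway genes and 6 of the markers. Without CDD replicate 2 and ND replicate 3, 418 genes passed, 2 pathway genes and 8 markers. With 1 brain left out, 471 to 2495 genes passed, 1 to 10 pathway genes and 6 to 25 markers. The lowest counts came without ND replicate 3 (471 genes), ND replicate 4 (615) and ND replicate 1 (688). The causes were not tested. Fits with fewer brains have less data for the test, and the count without CDD replicate 3 was 2495, above the 1710 with all 8 brains.

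The labels number the replicates in both diets. Brains with the same number did not all deviate together (correlations of 0.24, -0.28, 0.23 and 0.41 over 15888 genes), so that the numbers are not taken as pairs. With the replicate number as a block, 1812 genes and 2 members passed, among them *Fgfr3* at 0.30 (adjusted p = 0.0156). Of the 10 members, *Fgf8* had the fewest reads, 13 to 29 per brain.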

Other observations

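Other marker lists, chosen for the cell types a whole brain can hold, gave the following values beside the FGF genes. Of all genes tested, 4.24% were called higher and 4.59% lower in CDD. Of 8 diencephalon markers, 4 rose in CDD brains and 0 fell, with a median log2 fold change of 0.14, and their sums did not overlap between the diets (443 to 489 CPM in CDD, 407 to 438 CPM in ND). *Nkx2-1*, a transcription factor gene of the hypothalamus, had the smallest p of this list, at 0.24 (edgeR adjusted p = 0.0184). Of 8 rostral telencephalon markers, 2 rose, with *Nr2f1*, a regulator of cortical areas, at 0.15 (adjusted p = 0.0401), and the sums overlapped. Of 8 neuronal markers, 1 fell, the synaptic gene *Snap25* at -0.23 (adjusted p = 0.0246), and the median was -0.0001. Of 8 choroid plexus markers, only *Otx2* passed, at 0.20 (adjusted p = 0.0327), and the sums ranged from 238 to 556 CPM in CDD and from 334 to 372 CPM in ND brains.

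Among cells outside the neural lineage, 1 of 8 endothelial markers fell, the tight junction gene *Cldn5* at -0.28 (edgeR adjusted p = 0.00768). Of 8 meningeal fibroblast markers, 3 fell and 1 rose, with the collagen gene *Col1a1* at -0.23 (adjusted p = 0.0126). None of 8 microglia markers passed with edgeR, DESeq2 or limma-voom, and 3 had an edgeR unadjusted p under 0.05, against 23.9% of all genes tested. Of these markers, *C1qa*, of the complement system, had the smallest p at -0.33 (edgeR adjusted p = 0.094). Of 8 erythroid markers, 2 rose, led by the embryonic globin gene *Hbb-y* at 2.24 (adjusted p = 0.00651), and their sum was highest in ND replicate 3 at 2515 CPM. Of 5 eye and retina markers tested, 2 rose, with the pigment cell gene *Dct* at 0.50 (adjusted p = 0.0307), and the lens gene *Cryaa* had a count of 0 in 5 of the 8 brains. *Olig1*, of the oligodendrocyte lineage, was at -0.50 (adjusted p = 0.00287). Of all 101 marker genes, 90 were tested and 22 passed, 15 higher and 7 lower, against 8.83% of all genes tested. The part of these cells and regions in the FGF gene values was not tested.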
